A study of Mus musculus with 8 samples.

Results

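Voltage-gated sodium channels open when the membrane depolarises and let sodium in, which drives the fast upstroke of the action potential in working heart muscle, nerve and skeletal muscle. Each channel has a large pore-forming alpha subunit and smaller beta subunits with a single membrane span, which alter gating and anchor the channel at the surface. Nodal and atrioventricular canal myocardium is known for slow conduction and for relying on sodium current less than the working chambers do.

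The genes described here are 7 subunits of these channels: the pore subunits Scn10a, Scn3a, Scn4a and Scn8a and the beta subunits Scn2b, Scn3b and Scn4b. They were chosen by name, with earlier results of these data known, and their probes by equality of the gene name in the scanner files. Of the 7 genes, 6 had a probe among 27725 gene names, with 12 probes in all, 8 for pore and 4 for beta subunits. No probe carried the name Scn4b, which was not analysed here. Current gene symbols gave the same 12 probes. The array's other genes of the sodium channel family are not described.

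The samples were cells of hearts from E10.5 mouse embryos, at midgestation. All embryos carried the minKGFP transgene, a bacterial artificial chromosome that expresses green fluorescent protein as a reporter of minK (Kcne1), a potassium channel subunit, so both groups share it. Per the labels, hearts were digested with pancreatin and collagenase, and cells were sorted by fluorescence into GFP-high cells, labelled conduction system, and GFP-low cells, labelled chamber myocardium, with 4 biological replicates each. The groups are therefore bins of reporter brightness in whole hearts and not dissected tissue, and 5 ng of RNA per sample was amplified before 2 ug of product was labelled.

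Between 15735 and 22003 non-control spots of an array were well above background, a flag of the scanner software. Levels are log2 of the processed signal minus the array's 75th percentile, so 0 is the 75th percentile. The lowest signal well above background, called the detection limit here, ran from -3.40 to -1.70 on this scale and differed between arrays. Replicates 1 and 2 of each group shared slide 1, and replicates 3 and 4 shared slide 2. All 8 cardiomyocyte markers (Tnnt2, Actc1 and others) were above background on every array, at a summed linear level of 2423 to 3675 times the 75th percentile in GFP-high and 1671 to 2953 in GFP-low. Kcne1, the gene the reporter stands for, was 1.29 ± 0.35 (SE) higher in GFP-high but did not pass the test between the groups described below (limma adjusted p = 0.203). In bulk samples fewer cells of a type and less RNA per cell cannot be told apart.

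The probes are 60 bases long and are shown because a reading near background can be judged only against what was printed on the array. For the 4 probes that were above background on any array, the first 30 bases are given 5′ to 3′ in the sense of the transcript, in lower case.
Scn4a: atgaaggggttggtcaccttcctgtcacta
Scn2b: gttctttatgctttttaggggagaacccag
Scn10a, brighter probe: gggttctaatgtctttttctggtgtgctga
Scn3b, brightest probe: aattgcaagtagaaagggaagttttcagag
They lie on mouse build mm9 at chr11:106180721-106180780 (minus strand, Scn4a), chr9:44937945-44938004 (plus, Scn2b), chr9:119517960-119518019 (minus, Scn10a) and chr9:40098383-40098442 (plus, Scn3b). The files do not place them in an exon or untranslated region.

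The comparison asks whether these subunits differ between cells labelled conduction system and cells labelled chamber myocardium. Most readings of the subunits were not well above background in either group. Of 96 readings (12 probes on 8 arrays), 13 were well above background, 62 were surrogates, the software's stand-in for a signal too low to use, and 21 were signals not well above background. Pore subunits gave 8 of 64 readings above background and beta subunits 5 of 32. GFP-high gave 8 of 48 and GFP-low 5 of 48. Neither split was tested. Over all non-control spots, the share above background ran from 36.3% to 48.8% on GFP-high arrays and from 40.5% to 50.7% on GFP-low arrays. Of the 12 probes, 8 were above background on no array, against 35.7% of all 41174 non-control probes.

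The arrays differed in how much they could show. GFP-high replicate 3 and GFP-low replicate 1 gave no member reading above background. They had the highest detection limits, -1.70 and -2.13, and the fewest spots above background, 15735 and 17548. GFP-high replicate 1 gave 4 such readings, GFP-low replicate 4 gave 1 and each of the other arrays 2.

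**Figure D1:**
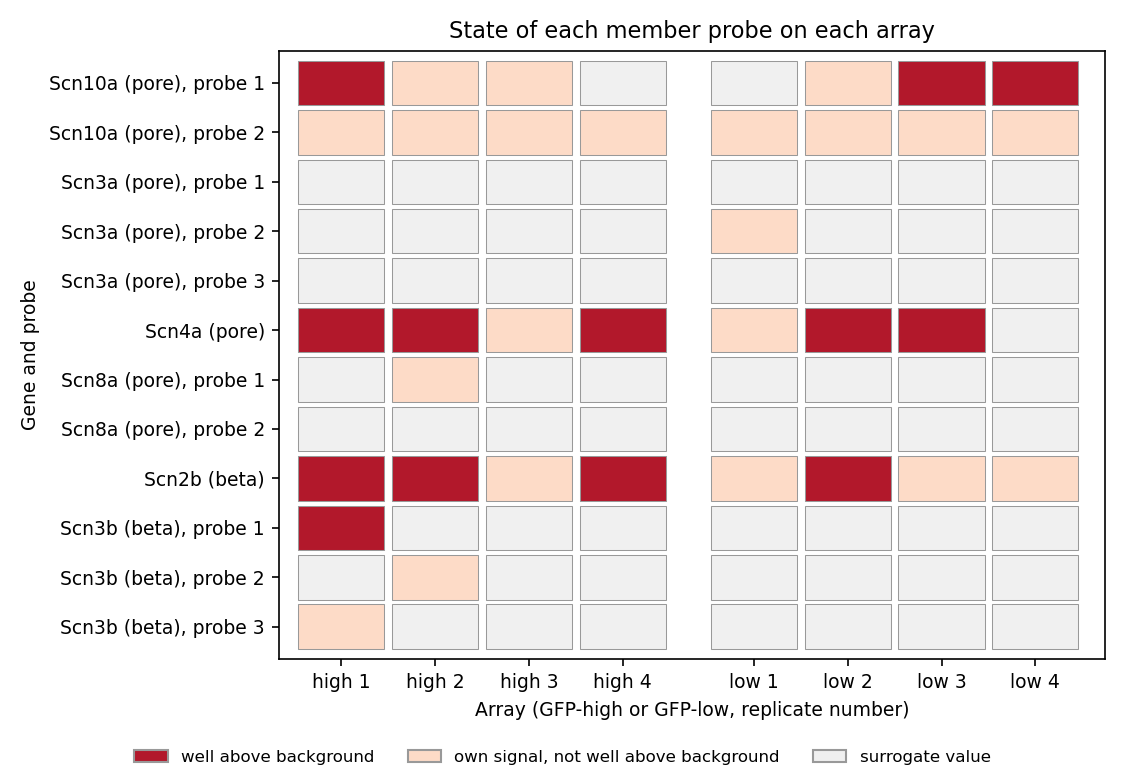
State of each of the 12 probes (vertical axis, gene and probe) on each of the 8 arrays (horizontal axis, group and replicate number). Red cells are well above background, pale orange cells are signals not well above background and grey cells are surrogate values. Scn4a (5 arrays) and Scn2b (4 arrays) hold 9 of the 13 red cells, and Scn3a and Scn8a hold none.

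Among the pore subunits, Scn4a, the channel of adult skeletal muscle, was measured most often. Its signal was -1.69, -1.76, -2.45 and -1.81 in GFP-high replicates 1 to 4 and -2.70, -2.01, -2.47 and -4.87 in GFP-low replicates 1 to 4. It was well above background in GFP-high replicates 1, 2 and 4 and in GFP-low replicates 2 and 3, and the value of GFP-low replicate 4 was a surrogate. The groups overlapped, since GFP-high replicate 3 lay below GFP-low replicate 2. GFP-high was the higher array at each of the 4 replicate numbers, by only 0.02 at number 3, but the labels do not tie equal numbers. The means were -1.93 ± 0.35 and -3.01 ± 1.27 (SD, n = 4 each). The difference was 1.08 ± 0.59 (SE) on the log2 scale, with a 95% interval of -0.26 to 2.42, and did not pass (limma adjusted p = 0.420). No fold is given, since 2 of the 4 GFP-low arrays measured the gene above background. Without GFP-low replicate 4 it was 0.46 ± 0.31 (limma adjusted p = 0.498).

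Among the beta subunits, Scn2b, which is linked to the alpha subunit by a disulfide bond, was the 1 gene with enough arrays above background to be tested. Its signal was -1.27, -2.43, -2.04 and -2.002 in GFP-high replicates 1 to 4 and -2.20, -2.70, -2.95 and -4.33 in GFP-low replicates 1 to 4, and none of these was a surrogate. It was well above background in GFP-high replicates 1, 2 and 4 and in GFP-low replicate 2. The groups overlapped by 1 array, as GFP-high replicate 2 lay below GFP-low replicate 1. GFP-high was again higher at each of the 4 replicate numbers, which the labels do not tie. The same count held for Scn3b, whose brightest probe was a surrogate on 7 arrays, so it says little here. The reading of GFP-low replicate 1, -2.20, lay just under that array's limit of -2.13, the second highest of the 8 limits. GFP-high replicate 3 read -2.04 under the highest limit, -1.70. The means were -1.93 ± 0.48 and -3.05 ± 0.91 (SD, n = 4 each). The difference was 1.11 ± 0.47 (SE) on the log2 scale, with a 95% interval of 0.03 to 2.19. Here too no fold is given, since 1 of the 4 GFP-low arrays measured the gene above background. It did not pass over all genes (limma adjusted p = 0.342, unadjusted 0.0455). Without GFP-low replicate 4 it was 0.68 ± 0.36 (limma adjusted p = 0.423).

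**Figure D2:**
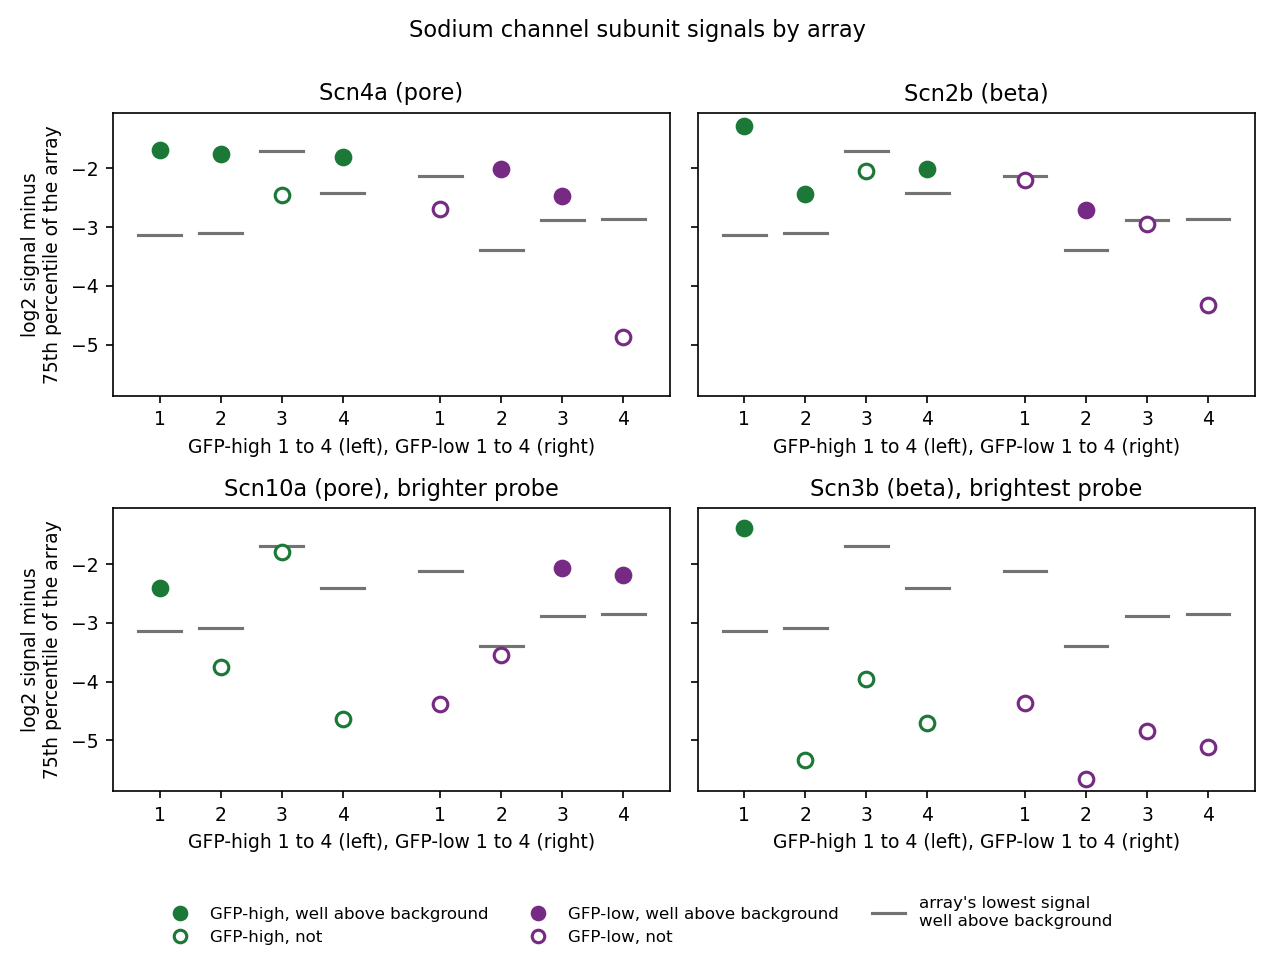
Signal of 4 subunits on each array (vertical axis, log2 signal minus the array's 75th percentile; horizontal axis, replicates 1 to 4 of GFP-high, then of GFP-low). Filled points are well above background, open points are not, green is GFP-high, purple is GFP-low, and grey bars mark each array's detection limit, from -3.40 to -1.70. GFP-low replicate 4 is lowest for Scn4a at -4.87 and for Scn2b at -4.33.

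Thus 0 of the 2 tested subunits passed, 0 of 1 pore and 0 of 1 beta subunits, where 0.14% of all 12884 tested genes did (18 genes). At an unadjusted limma p under 0.05 there was 1 of the 2, against 14.3% of all genes. The 2 tested genes passed the filter on dim probes partly through the group in which they were brighter. Over all genes in the test the median difference was 0.16, and both subunits lay above it.

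The size of both differences moved with the processing. Normexp background correction subtracts the local background, fits a model to the rest and here adds an offset of 50 to every signal. The part of the offset in the smaller differences it gave was not tested. With normexp the difference was 0.52 ± 0.22 (SE) for Scn2b and 0.47 ± 0.23 for Scn4a (limma adjusted p = 0.322 and 0.394).
On that scale the groups of both genes no longer overlapped, but the 8 probes above background on no array also gave positive differences, from 0.17 to 0.61. Scn2b read -0.85, -0.67, -0.94 and -0.99 in GFP-high replicates 1 to 4 and -1.37, -1.27, -1.43 and -1.45 in GFP-low, and Scn4a read -1.001, -0.59, -0.98 and -1.02 in GFP-high and -1.47, -1.10, -1.40 and -1.52 in GFP-low. After normexp every GFP-high array lay above every GFP-low array in 4.73% of tested genes, and the groups were apart in either direction in 7.61%. When all values were raised to the highest detection limit of any array, -1.70, nearly all readings of both genes lay at that floor, and the differences were 0.11 ± 0.12 for Scn2b and 0.002 ± 0.06 for Scn4a. Within slide 1 the differences were 0.60 for Scn2b and 0.63 for Scn4a, and within slide 2, which holds GFP-low replicate 4, they were 1.62 and 1.54.

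**Figure D3:**
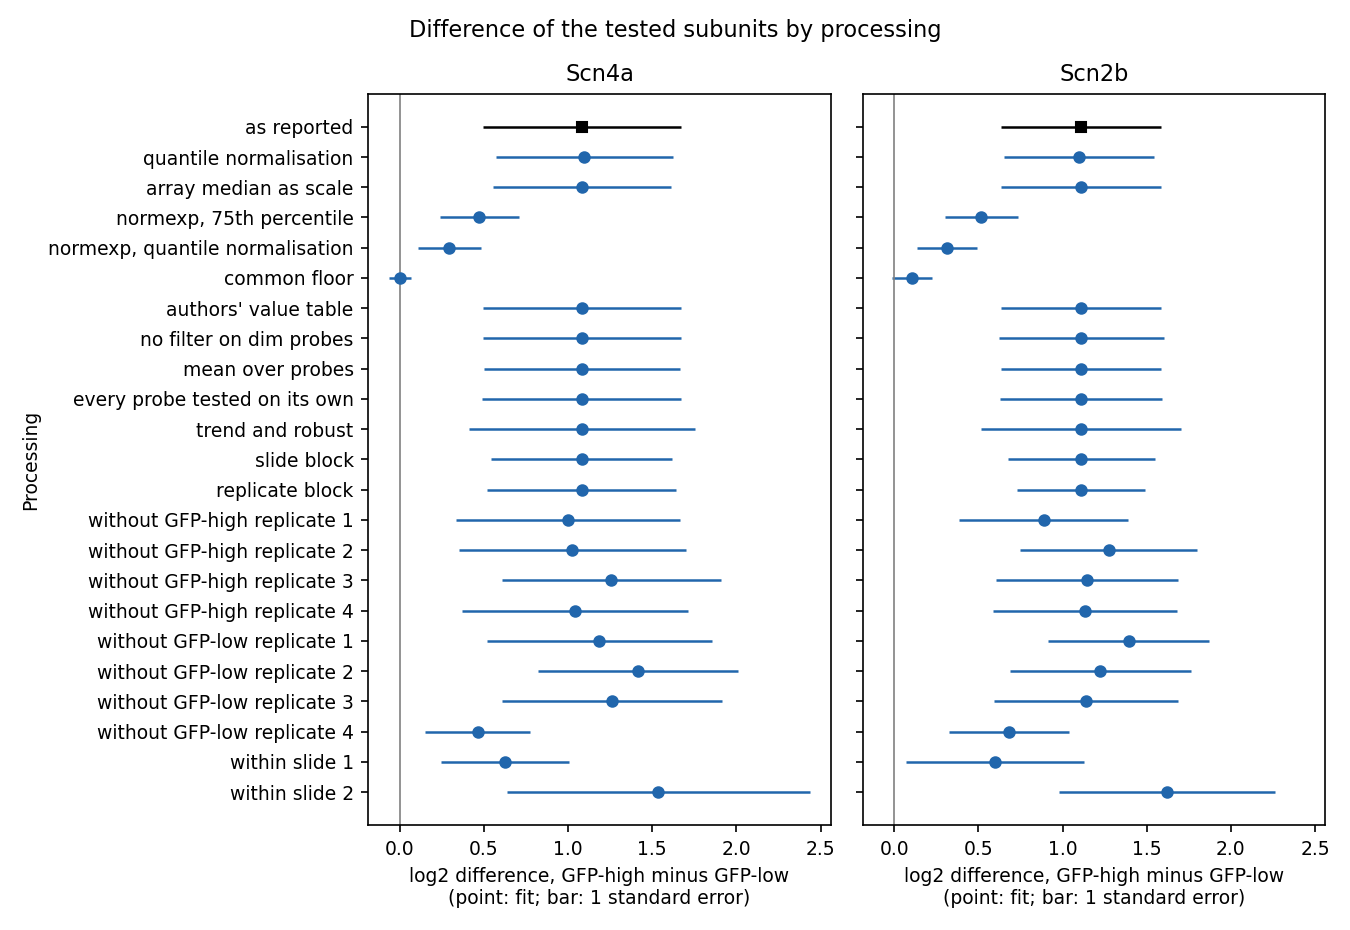
Difference between GFP-high and GFP-low (horizontal axis, log2; bars, 1 standard error) for Scn4a and Scn2b under each processing (vertical axis). All points lie at or above 0; the common floor gives the smallest differences, 0.002 and 0.11, and slide 2 alone the largest, 1.54 and 1.62.

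Scn10a, a pore subunit of sensory neurons whose locus has been tied to cardiac conduction, gave no common direction. Its brighter probe read -2.40, -3.75, -1.79 and -4.64 in GFP-high replicates 1 to 4 and -4.38, -3.55, -2.07 and -2.18 in GFP-low. It was well above background in GFP-high replicate 1 and GFP-low replicates 3 and 4, under the 4 arrays needed for the test. The groups overlapped throughout, with means of -3.15 ± 1.29 and -3.04 ± 1.12 (SD, n = 4 each). The difference was 0.89 within slide 1 and -1.09 within slide 2, so the slides had opposite signs. The sign of the overall difference also turned with the processing, from -0.10 to 0.25 with normexp. The other probe, at chr9:119518293-119518352 (minus strand), was above background on no array and ranged from -5.06 to -3.02 in GFP-high and from -4.12 to -3.07 in GFP-low.

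Scn3a and Scn8a, pore subunits of the embryonic and adult nervous system, were not well above background on any array. Of the 40 readings of their 5 probes 38 were surrogates, and the other two were signals not well above background. Their values therefore have no order, and they give only a bound: signal under the limit of each array, in GFP-high and GFP-low alike.

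Scn3b, a beta subunit that resembles the beta-1 type in sequence and occurs in heart and brain, was above background on 1 of 24 readings. Its brightest probe read -1.38 in GFP-high replicate 1, above that array's limit of -3.14, and -5.34, -3.95 and -4.70 in GFP-high replicates 2 to 4, all surrogates. The GFP-low readings of -4.36, -5.65, -4.83 and -5.11 were surrogates as well. The signal thus rests on 1 array and 1 of 3 probes: on the same array the probes at chr9:40099133-40099192 and chr9:40090063-40090122 (both plus strand) read -5.37 and -3.92, neither above background. No fold is given, because the mean of GFP-high, -3.84, lies below the detection limits of the GFP-low arrays.

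The tracks of Scn4a and Scn2b over the 8 arrays were set against every other of the 12884 tested genes as a description. The genes named were picked for the highest r, so their r is no test of a link. The 3 genes most like Scn4a were Nosip, which binds nitric oxide synthase (Pearson r = 0.993), Irf3, an interferon regulatory factor (0.989), and Tcrb-J (0.986), a name kept from the files. The 3 most like Scn2b were the atypical cadherin Fat1 (0.978), the dehydrogenase Bdh2 (0.968) and Syp, the synaptic vesicle protein synaptophysin (0.965). Without GFP-low replicate 4, an alternative added after seeing the data, r was 0.887 to 0.959 for the 3 genes beside Scn4a and 0.886 to 0.937 for those beside Scn2b. None of the 6 passed the test between the groups (limma adjusted p from 0.295 to 0.430).

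Genes of proteins that bind, anchor or modify sodium channels gave no call. Of 39 listed partner genes 29 were tested, and none rose or fell (limma). An unadjusted limma p under 0.05 was seen for 11 of the 29, against 14.3% of all genes. Of these 11, 10 were lower in GFP-high and 1, Tcap, was higher. The share over all genes was not split by direction. Their median difference was 0.09, against 0.16 over all genes tested, with 15 positive and 14 negative values. The 3 with the smallest p were all lower in GFP-high: Sntb2, a syntrophin of the dystrophin complex, had -2.33 ± 0.58 (SE), Ank3, the ankyrin that anchors sodium channels in nerve and heart, -1.76 ± 0.51, and the cell adhesion gene Cdh2 -1.55 ± 0.48 (limma adjusted p = 0.186, 0.227 and 0.244). Ank3 ran from -1.997 to 0.40 in GFP-high and from 0.42 to 1.46 in GFP-low, so its groups were apart; this held for 8.94% of tested genes.

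Among other genes of sodium transport, 17 of 29 with a probe were tested and none passed (limma). Of the 17, 3 had an unadjusted limma p under 0.05, against 14.3% of all genes. The median was 0.48, with 13 positive and 4 negative values. The 3 with the smallest p belong to the sodium pump, which exports sodium: its regulator Fxyd1 (phospholemman) had 1.43 ± 0.24 (SE), and its beta subunits Atp1b2 and Atp1b1 had 1.06 ± 0.41 and 0.59 ± 0.26 (limma adjusted p = 0.0986, 0.315 and 0.349). Fxyd1 was measured on all 8 arrays, from 5.67 to 5.997 in GFP-high and from 4.10 to 4.81 in GFP-low. It passed with the common floor (limma adjusted p = 0.0389) and with trend and robust moderation (0.0166). These were the only 2 of 23 alternatives in which the list had a call. The floor lay below all values of Fxyd1 and left its difference at 1.43, with a smaller SE of 0.17.

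Slow-conducting and chamber genes were read as the setting of the sort. These lists were chosen with earlier results of these data known, so their medians and signs are no independent test of it. Of 13 tested genes of the slow-conducting node and atrioventricular canal, 1 rose, Cacna2d2, an accessory calcium channel subunit, by 1.87 ± 0.25 (SE, limma adjusted p = 0.0466; 0.0699% of all genes rose). The call rests on every array: without any 1 of the 8 it was lost (adjusted p of the list's best gene from 0.0529 to 0.146). The list also had no call with quantile normalisation (smallest limma adjusted p = 0.0567), the array median (0.0775), the mean over probes (0.0551), single probes (0.0619), no filter (0.154), the replicate number as a block (0.148), or within slide 1 (0.262) or slide 2 (0.553). An unadjusted limma p under 0.05 was seen for 6 of the 13 genes, against 14.3% of all genes. The inhibitor Id2 had 1.495 ± 0.22 and the Wnt agonist Rspo3 2.61 ± 0.42 (limma adjusted p = 0.0655 and 0.0874). The list's median was 0.81, with 11 positive and 2 negative values. The negative ones, named after their values were seen, were the pacemaker channel gene Hcn4 with -0.65 ± 0.45 and the transcription factor gene Isl1 with -0.38 ± 0.55 (limma adjusted p = 0.518 and 0.759). None of 11 chamber genes passed (limma), with a median of -0.74 and 9 negative values. Of the 11, 5 had an unadjusted limma p under 0.05, against 14.3% of all genes. Cited1, a transcriptional coregulator, had -1.61 ± 0.25, Hand1, a ventricular transcription factor, -1.33 ± 0.28, and Nppa, the atrial natriuretic peptide, -0.89 ± 0.22 (limma adjusted p = 0.0725, 0.145 and 0.186).

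**Figure D4:**
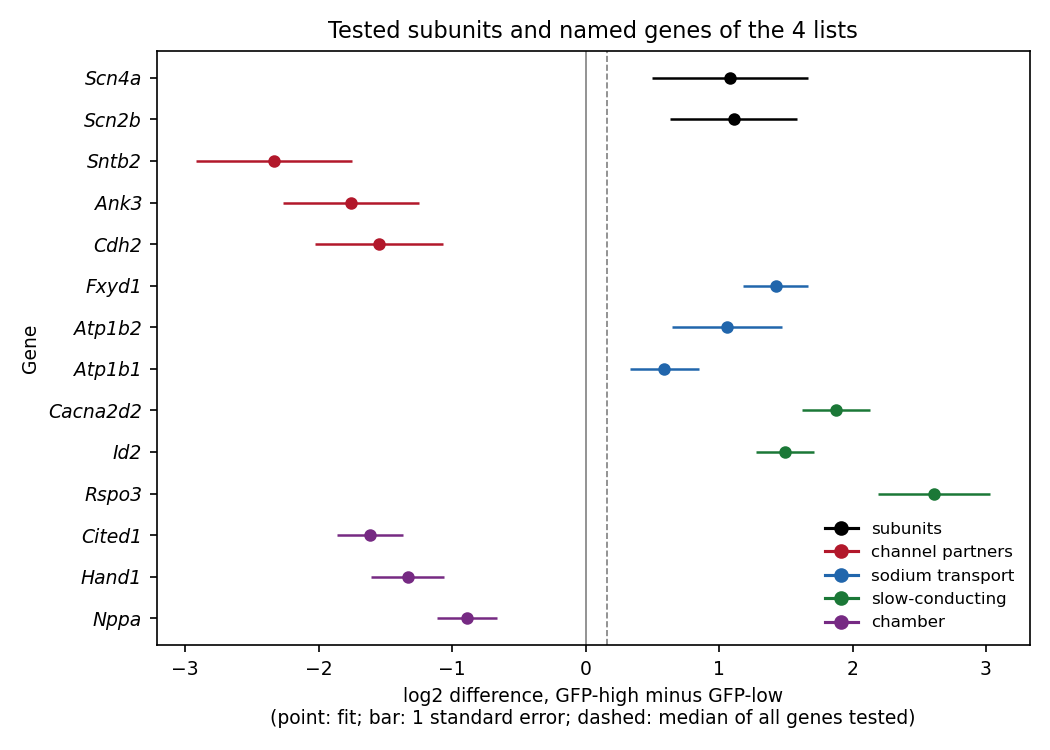
Difference between GFP-high and GFP-low (horizontal axis, log2; bars, 1 standard error; dashed line, median of all genes tested) for the tested subunits and the 3 genes of each list with the smallest p (vertical axis). Scn4a and Scn2b, at 1.08 and 1.11, lie above 0, as do the sodium pump and slow-conducting genes shown. The channel partners Sntb2, Ank3 and Cdh2, at -2.33, -1.76 and -1.55, lie below 0, as do the chamber genes shown. Over all 29 tested partners 15 differences were positive and 14 negative, so the 3 shown do not stand for their list. Of the genes shown only Cacna2d2 passed.

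Several members are best known from nerve or skeletal muscle, so markers of those tissues were read beside them. Of 20 neuron and neural crest markers 6 were tested and none passed (limma). Of the 6, 3 had an unadjusted limma p under 0.05, against 14.3% of all genes. Another 8, among them Elavl4, Stmn2, Stmn3, Snap25, Prph and Ret, were above background on no array. The summed linear level of all 20 ran from 37.5 to 42.1 in GFP-high and from 22.2 to 30.5 in GFP-low, so the groups were apart. Most of the sum was Uchl1, a ubiquitin hydrolase, with 0.86 ± 0.21 (SE, limma adjusted p = 0.174). Without Uchl1 the sums ran from 3.43 to 9.38 in GFP-high and from 5.82 to 10.9 in GFP-low. Nefl, a neurofilament gene, had -1.43 ± 0.47 and Syp 1.77 ± 0.66 (limma adjusted p = 0.258 and 0.295).

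Of 10 skeletal muscle markers 2 were tested: the acetylcholine receptor subunit gene Chrng had 1.35 ± 0.44 (SE) and the alpha-actin gene Acta1 0.42 ± 0.33 (limma adjusted p = 0.256 and 0.571). Chrng was the 1 of these 2 with an unadjusted limma p under 0.05, against 14.3% of all genes. Myf5, Myf6, Chrna1, Pax3 and Pax7 were above background on no array. The summed level ran from 17.8 to 31.9 in GFP-high and from 12.0 to 25.3 in GFP-low. The part of either tissue in the readings of Scn4a and Scn2b was not tested. Markers of endothelium (3 of 6 tested), epicardium (3 of 4) and erythroid cells (4 of 6) gave no call (limma, 0 at an unadjusted p under 0.05 in each list). Their summed levels overlapped between the groups; the erythroid sum ran from 20.1 to 149 in GFP-high and from 10.2 to 133 in GFP-low.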

How the data were processed

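RNA of 8 sorted samples was measured on 1-colour Agilent arrays. The deposited values are spot intensities on a linear scale from Agilent Feature Extraction 10.5.1.1, per the submitters' processing notes, with background subtraction, detrending and surrogates for the lowest values per the file headers. A table of all samples, also deposited by the authors, holds the same intensity in all 45018 spots of every array (relative tolerance 1e-06), unscaled and uncentred; its column medians run from 12.2 to 19.9.

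Control spots and outlier flags were left out, processed signals were put on the log2 scale relative to the 75th percentile of their array, and spots of a probe were averaged. Deposited flags (other than intensities) gave detection. Of 41174 probes, 33099 were named through the RefSeq gene table of GRCm38.p6, used for names only. The probe with the highest mean stood for each gene and was tested if well above background on at least 4 of 8 arrays (12884 of 27725 names). The fit used R 4.3.3 and limma 3.58.1 (lmFit, eBayes) and had no term but the group. An adjusted p under 0.05 (Benjamini-Hochberg, over all genes tested) was the threshold. The fit was also run on simulated independent normal values, with changes larger than the differences of Scn2b and Scn4a. These values had no surrogates or floor, so that run does not bear on readings near background. Alternatives changed scaling, background correction, floor, filter, probe rule, moderation, slide, replicate block and single arrays.

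The members and lists were chosen with earlier results of these data known. The text names all members, the 3 tested genes with the smallest unadjusted p in each list it details, and the 3 genes most like each tested member. Equal replicate numbers were not taken as pairs: nothing in the labels ties them, and correlations of same-numbered deviations from the group means, all positive, ran from 0.07 to 0.30, so not every pair exceeded 0.1. Nothing in the labels says that the biological replicates came from separate litters or sorts. The number of arrays limits the precision.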

Additional observations from a re-analysis of the deposited data

Results flagged for a closer look

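In 4 of 48 groups of 4 arrays examined, 1 array stood far from the other three; chance flags about 1 group in 20. Scn4a read -2.45 in GFP-high replicate 3, the array with the highest detection limit, against -1.81 in the nearest GFP-high array. Cited1 read 4.69 in GFP-high replicate 4 (nearest 5.32), Nkx2-5, a cardiac transcription factor, 3.59 in GFP-low replicate 4 (nearest 2.92) and Acta1 4.06 in GFP-high replicate 3 (nearest 4.82).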

How the results depend on the processing

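Scn2b and Scn4a kept a positive difference and missed the threshold in all 22 alternatives that could be computed (limma adjusted p from 0.238 to 0.812 and from 0.312 to 1), from 0.11 to 1.62 and from 0.002 to 1.54. With single arrays left out they ran from 0.68 to 1.39 and from 0.46 to 1.42. The filter for all 8 arrays removes both. The differences stayed at 1.11 and 1.08 with the authors' table, no filter, mean over probes, single probes, trend and robust moderation, and either block. Their sign could not turn there, and all 22 alternatives reuse the same arrays, so the count is not independent support. With the replicate block the differences were 1.11 (limma adjusted p = 0.238) and 1.08 (0.349) and 0 genes passed (2382 at an unadjusted p under 0.05); 7 of 8 arrays correlated best with their own number, a hint from the data and not from the design. No partner gene passed in any of 23 alternatives.

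Over all genes the count of 18 was 9 with quantile normalisation, 0 with the array median (1594 at an unadjusted limma p under 0.05), 49 with the common floor, 3 without a filter, 11 with all 8 arrays above background, 7 by probe, 11 with the slide as a block, 0 within slide 1 (1565 unadjusted) and 0 within slide 2 (790 unadjusted), and from 0 to 7 with single arrays left out (1244 to 2578 unadjusted). Calls higher and lower were 9 and 9 as reported, 37 and 12 with the common floor, 14 and 6 with normexp, 12 and 3 with normexp and quantile normalisation, 10 and 1 with all 8 arrays above background, 14 and 5 with trend and robust moderation, and 3 and 8 with the slide as a block. The slow-conducting list had 3 calls with normexp, with normexp and quantile normalisation and with the common floor, 2 with all 8 arrays above background and with trend and robust moderation, and 0 with quantile normalisation, the array median, no filter, the mean over probes, single probes, the replicate block, within slide 1, within slide 2 and, at 0 to 0, with single arrays left out. The chamber list had 1 call, Cited1, with normexp, with normexp and quantile normalisation, with the common floor, with all 8 arrays above background and with trend and robust moderation. Fxyd1 was the 1 call of the sodium transport list with the common floor and with trend and robust moderation. The filters also changed the number of genes tested, and some alternatives used fewer arrays. The cause of the changed counts was not tested. The median difference of all genes ran from 0.05 to 0.16 over the scalings and background corrections. For the subunits, 13 of 96 readings were well above background.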
